A study of Rattus norvegicus with 12 samples.

Results

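The genes described here are 9 rat genes of the endoplasmic reticulum stress response and the integrated stress response: Atf4, Ddit3, Trib3, Chac1, Asns, Ppp1r15a, Herpud1, Hspa5 and Xbp1. They were chosen as all probe sets whose platform annotation names a single gene, where that gene is on this list. The list found 11 of 31042 probe sets and 9 of 14217 genes, with 3 probe sets for Trib3 and 1 for each other gene. All 11 probe sets passed the filter on low intensity. The tissue is rat right lung on Affymetrix arrays, 12 in all, with 3 for each of 4 groups: SS HTV, SS control, BN HTV and BN control. SS is the Dahl salt-sensitive strain, an inbred model of salt-induced hypertension, and BN is the Brown Norway strain, an inbred strain used here as its counterpart. HTV is a ventilation condition that the labels do not spell out. The labels describe all 12 samples as room air with ventilation. Per the labels, all rats weighed 250 to 350 g, were killed under anesthesia, and had the lung circulation flushed with saline before the right lung was frozen, so control and HTV lungs share these steps. The labels name no age, sex or length of ventilation, and the title of each array ends in its own code.

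Protein folding stress in the endoplasmic reticulum is sensed by PERK, IRE1 and ATF6. PERK and related kinases phosphorylate the translation factor eIF2, which lowers general protein synthesis but favours translation of ATF4, a transcription factor that turns on amino acid and stress genes including Ddit3 (CHOP), Trib3, Chac1 and Asns. Ppp1r15a (GADD34) closes this loop as the phosphatase subunit that removes the phosphate from eIF2. IRE1 splices the Xbp1 transcript, and spliced XBP1 and ATF6 raise chaperones such as Hspa5 (BiP) and degradation factors such as Herpud1. The arrays measure transcript level, and neither eIF2 phosphorylation nor Xbp1 splicing can be read from them.

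The deposited MAS5 intensities were already scaled to a like mean on each array, with medians of 58.5 to 68.1. Sftpc, the surfactant protein of type 2 cells, had intensities of 2920 to 4581 over the 12 arrays, and the club cell gene Scgb1a1 had 3071 to 4681. Both lung markers were thus bright in every group. The array labelled SS control 3 stood apart. At 21 probe sets where the other 11 arrays separated the strains by at least 2.0 log2 units, it lay nearer the BN mean at 9, and each of the other 11 arrays lay nearer the other strain at 0 of the 10 or 11 probe sets that its own check used. The aldehyde oxidase gene Aox1 read 38.1 in SS control 3, against 238.0 to 274.9 in the other SS arrays and 38.0 to 64.1 in BN arrays. Its beta-actin 5′ to 3′ log2 ratio, a sign of RNA quality, was -1.40, against -1.01 to -0.23 in the other SS arrays and -1.46 to -0.88 in BN arrays, and its array weight was the lowest of the 12, at 0.29. For the 9 genes, results for SS lungs are therefore also given without that array where a call changed. The sizes of differences also moved and are not all given. For HTV in SS lungs, Atf3 went from 2.45 to 2.18 and Edem1 from 0.64 to 0.77 on the log2 scale, and both still passed. Strain differences of genes outside the 9 are given only with SS control 3. Without SS control 3, the same number of the 9 genes, 3, passed the test for HTV in SS lungs.

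The upstream sequences of 5 of these genes are shown because they carry the DNA elements through which the response is known to act. The elements searched, on both strands of the 250 bases upstream of each gene start, were the endoplasmic reticulum stress element ERSE (CCAAT, 9 bases of any kind, then CCACG), the shorter ERSE-II (ATTGG, any base, then CCACG), the C/EBP-ATF element read by dimers of ATF4 (TGATGNAA) and the core of the unfolded protein response element (TGACGTGG). In the 9 genes no match overlapped another. Sequences are from RefSeq, assembly GRCr8, 5′ to 3′ on the gene's strand, and capitals mark the matches; for Herpud1 and Asns the start used lies inside the annotated gene.
Trib3 chr3:161275534-161275783 (-): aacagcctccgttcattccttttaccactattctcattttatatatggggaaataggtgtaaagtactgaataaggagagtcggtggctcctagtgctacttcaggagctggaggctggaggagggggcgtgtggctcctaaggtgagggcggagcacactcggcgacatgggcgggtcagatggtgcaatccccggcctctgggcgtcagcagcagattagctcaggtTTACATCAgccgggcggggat
Chac1 chr3:126795881-126796130 (+): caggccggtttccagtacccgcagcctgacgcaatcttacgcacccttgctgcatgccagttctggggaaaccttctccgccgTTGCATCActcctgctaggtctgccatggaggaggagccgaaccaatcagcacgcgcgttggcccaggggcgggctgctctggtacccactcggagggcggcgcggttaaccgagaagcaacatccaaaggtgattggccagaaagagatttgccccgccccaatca
Herpud1 chr19:10614708-10614957 (-): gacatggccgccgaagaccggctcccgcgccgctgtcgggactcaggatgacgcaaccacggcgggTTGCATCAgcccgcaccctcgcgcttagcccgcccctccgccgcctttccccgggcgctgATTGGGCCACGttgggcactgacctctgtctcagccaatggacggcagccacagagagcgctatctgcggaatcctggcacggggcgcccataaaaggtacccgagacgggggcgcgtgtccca
Hspa5 chr3:38452766-38453015 (+): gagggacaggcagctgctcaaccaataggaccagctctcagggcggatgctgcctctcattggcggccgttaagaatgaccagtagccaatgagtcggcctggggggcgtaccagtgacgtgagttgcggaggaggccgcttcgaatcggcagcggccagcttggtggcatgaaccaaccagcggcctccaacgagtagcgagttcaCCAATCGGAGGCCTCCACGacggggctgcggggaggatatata
Xbp1 chr14:84604373-84604622 (+): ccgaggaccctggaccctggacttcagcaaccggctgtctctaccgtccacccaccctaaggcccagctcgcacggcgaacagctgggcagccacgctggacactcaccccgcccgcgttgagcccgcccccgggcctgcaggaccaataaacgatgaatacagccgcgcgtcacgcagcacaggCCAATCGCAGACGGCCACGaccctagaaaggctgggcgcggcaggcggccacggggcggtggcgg

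ERSE matched in Hspa5 and Xbp1 among the 9 genes and in 22 of 33469 rat promoters of the same length (0.0657%). ERSE-II matched in Herpud1 and in 14 promoters overall (0.0418%). The C/EBP-ATF element matched on the opposite strand in Trib3, from 21 to 14 bases upstream, and in Chac1 and Herpud1, and in 1139 promoters overall (3.4%). The core of the unfolded protein response element matched in 0 of the 9 genes and in 174 promoters (0.52%). Among the endoplasmic reticulum chaperones and foldases with a sequence, ERSE matched in 6 of 15, which included Hsp90b1, Calr and Dnajc3. The C/EBP-ATF element matched in 0 of these 15, in 4 of 22 ATF4 and CHOP targets and in 5 of 11 aminoacyl-tRNA synthetases. A match describes letters in this window and does not show that a factor binds there. The elements were picked because they are known for this response. Matches in its genes beside the shares of all promoters are therefore a description and not a test.

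Part of the response rose under HTV in both strains. In SS lungs 3 of the 9 genes rose (Ppp1r15a, Chac1 and Trib3) and 0 fell, where 3.88% of all 10554 genes tested rose and 4.11% fell. In BN lungs 4 of 9 rose (Ppp1r15a, Herpud1, Trib3 and Atf4) and 0 fell, where 2.97% of all genes rose and 2.65% fell. Over both strains together, 5 of 9 rose, which added no gene to those named, where 6.83% of all genes rose and 8.66% fell. The median difference of the 9 genes, HTV minus control on the log2(intensity + 16) scale, was 0.31 in SS lungs and 0.24 in BN lungs, where the median over all genes was -0.01 and -0.03. Calls are limma tests with Benjamini-Hochberg adjustment over 18625 probe sets at 0.05. The 9 genes were chosen with earlier results of these data known. Their counts beside the shares of all genes are therefore a description and not a test of the list. HTV and control arrays were fully apart for 5 of the 9 genes in SS lungs (30.7% of all genes) and for 5 of 9 in BN lungs (26.6%). In whole lung, fewer cells of a type and less RNA per cell cannot be told apart.

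**Figure D1:**
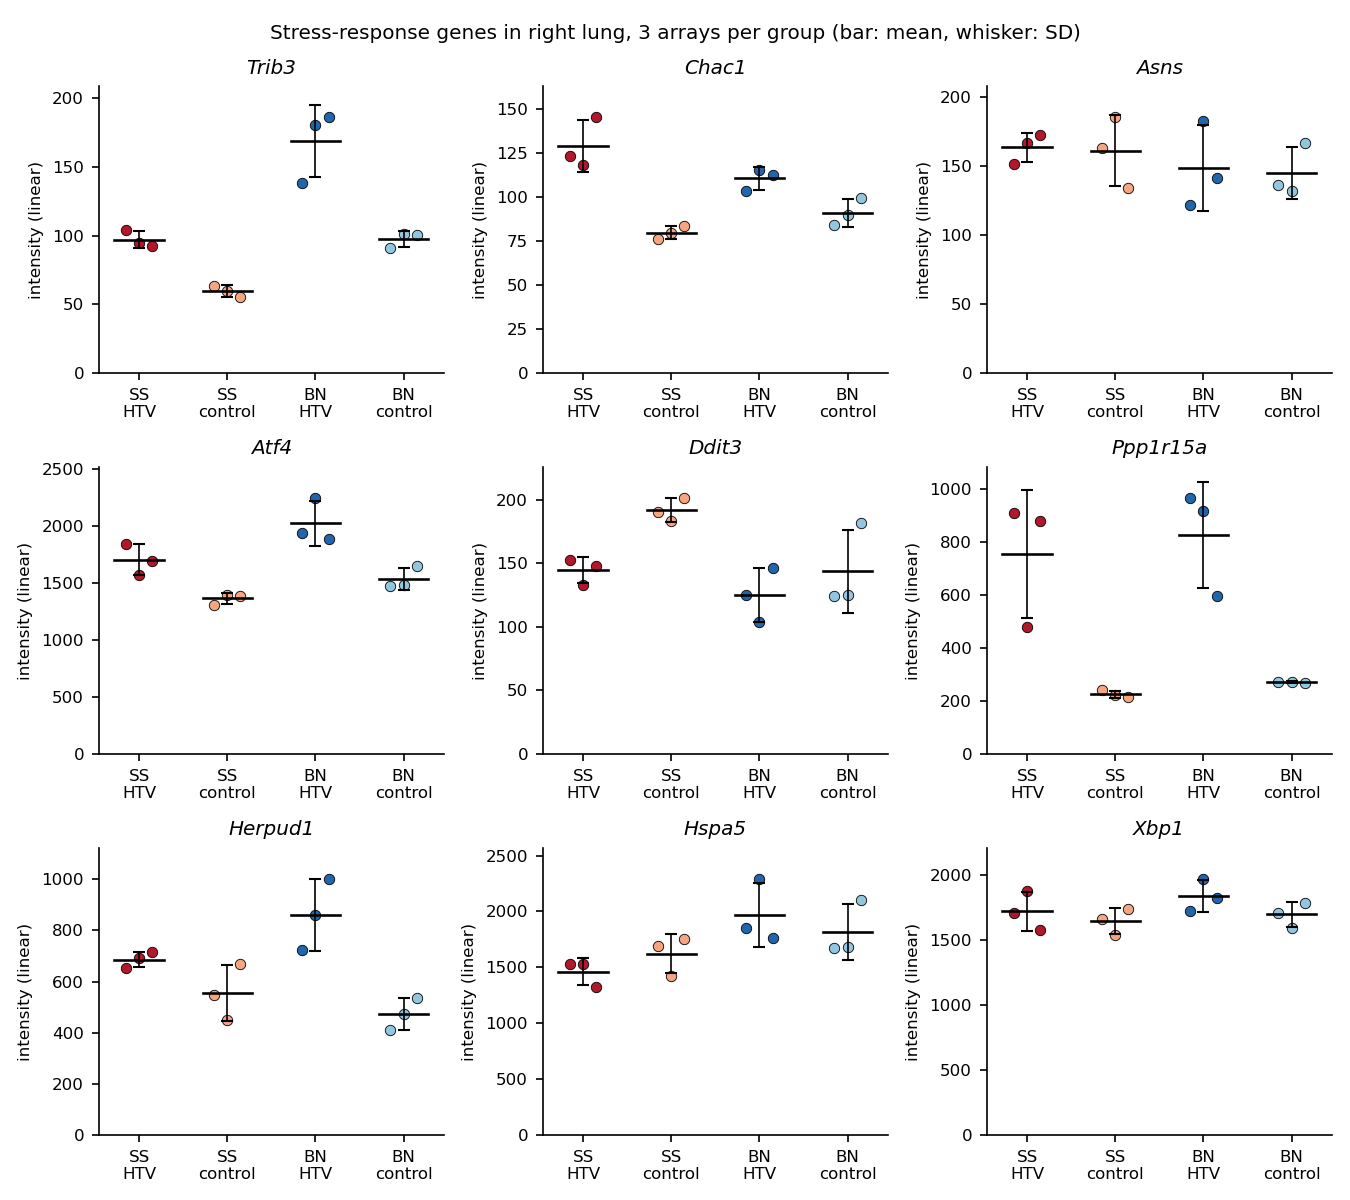
Intensity (linear) of the 9 genes on every array, each point 1 array, with the group mean as a bar and the SD as a whisker (n = 3 per group); Trib3 is shown by its representative probe set. The HTV arrays of Ppp1r15a lie between 477.3 and 965.9 in both strains, above every control array, and Hspa5, Xbp1 and Asns overlap between HTV and control in both strains.

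**Figure D2:**
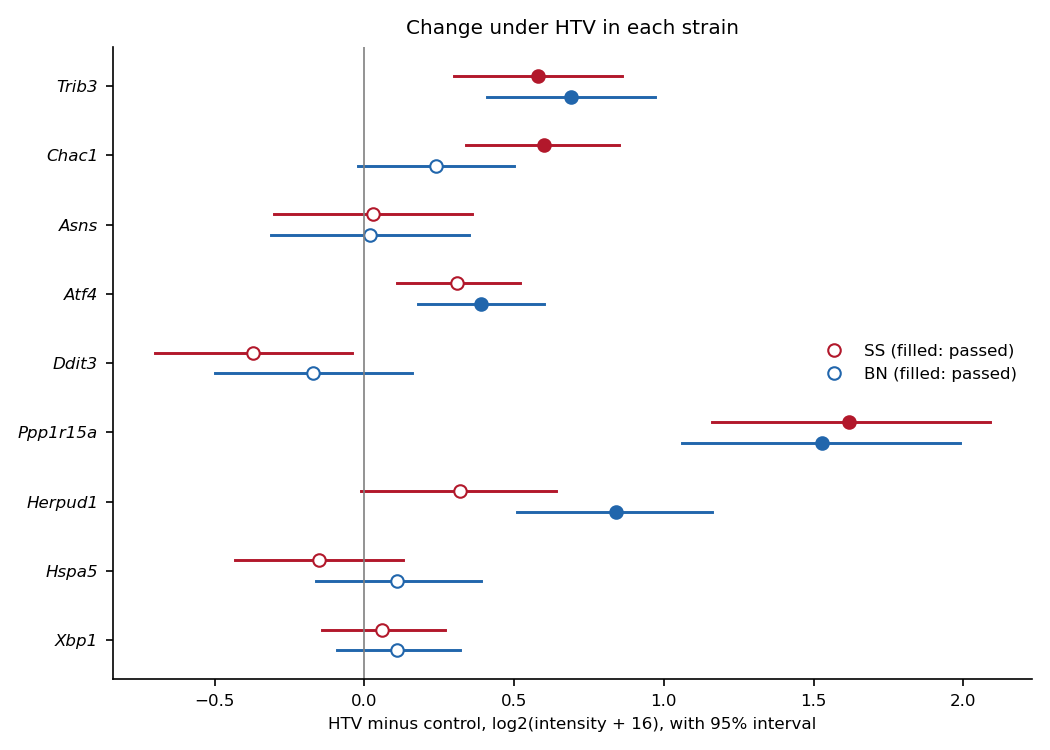
Difference in log2(intensity + 16), HTV minus control, with its 95% interval for each gene and strain; filled points passed the limma test at an adjusted p of 0.05. Ppp1r15a has the highest points, 1.62 in SS and 1.53 in BN, and Ddit3 lies below 0 in both strains without passing.

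Ppp1r15a, the eIF2 phosphatase subunit, had the largest change of the 9 genes in both strains. Its intensity was 908.6, 477.3 and 880.1 in SS HTV lungs, against 239.9, 220.8 and 214.9 in SS control lungs. In BN lungs it was 965.9, 916.0 and 596.7 under HTV and 272.0, 272.9 and 266.0 in controls. Every HTV array was above every control array of both strains, and the spread was wide among HTV arrays and narrow among controls. The means were 755 ± 241 in SS HTV and 225 ± 13.1 in SS control lungs, and 826 ± 200 in BN HTV and 270 ± 3.75 in BN control lungs (SD, n = 3 each). This is a ratio of mean intensities of 3.35 in SS and 3.06 in BN. The log2 difference was 1.62 ± 0.22 in SS lungs (SE; adjusted p = 0.000627) and 1.53 ± 0.22 in BN lungs (adjusted p = 0.00128). The difference between these effects was 0.10 (95% interval -0.56 to 0.76; adjusted p = 0.94). Ppp1r15b, the constitutive partner that does the same task, is in the list of translation initiation regulators, of which 0 of 9 passed for HTV in either strain.

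Trib3, a pseudokinase induced by ATF4 and CHOP that restrains them, rose in both strains on each of its 3 probe sets. On its brightest probe set, 1386321_s_at, the intensity was 104.5, 94.4 and 92.8 in SS HTV lungs and 63.7, 59.8 and 55.3 in SS control lungs. In BN lungs this probe set had 138.7, 181.0 and 186.7 under HTV and 91.1, 101.1 and 100.5 in controls. HTV and control arrays did not overlap within either strain. The log2 difference was 0.58 ± 0.13 in SS lungs (adjusted p = 0.0163) and 0.69 ± 0.13 in BN lungs (adjusted p = 0.00697). Without SS HTV 1 the SS call was lost, at 0.54 (adjusted p = 0.0704). The probe sets 1370694_at and 1370695_s_at gave 0.69 and 0.76 in SS lungs and 0.66 and 0.70 in BN lungs, all with adjusted p between 0.0148 and 0.036.

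Chac1, an enzyme that breaks down glutathione and a target of ATF4, had intensities of 123.0, 117.9 and 145.4 in SS HTV lungs, against 76.1, 79.2 and 83.3 in SS control lungs. In BN lungs it had 103.2, 115.3 and 112.6 under HTV and 83.9, 89.5 and 99.4 in controls. The HTV arrays lay above the control arrays in both strains, by a wider gap in SS. As a log2 difference this was 0.60 ± 0.12 in SS lungs (adjusted p = 0.00957), and in BN lungs it was 0.24 ± 0.12 and did not pass (adjusted p = 0.283). The interaction, the SS effect minus the BN effect, was 0.35 (95% interval -0.01 to 0.72; adjusted p = 0.608), so a strain difference in the Chac1 response was not shown.

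Asns, the asparagine synthetase that ATF4 is best known to induce, did not pass. It had 151.9, 166.8 and 172.5 in SS HTV lungs and 162.9, 185.9 and 134.5 in SS control lungs. BN lungs had 121.6, 182.9 and 141.4 under HTV and 136.5, 132.2 and 166.7 in controls. The groups overlapped in both strains. Its log2 difference was 0.03 in SS (95% interval -0.30 to 0.36) and 0.02 in BN (-0.31 to 0.35).

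Atf4 itself, the central transcription factor of the integrated stress response, had intensities of 1843.3, 1571.1 and 1692.6 in SS HTV lungs and 1307.0, 1394.3 and 1388.2 in SS control lungs. BN lungs had 1933.7, 2244.3 and 1879.6 under HTV and 1467.1, 1483.1 and 1644.6 in controls. Each HTV array was above each control array of its strain. The log2 difference passed in BN lungs, at 0.39 ± 0.10 (adjusted p = 0.031), and not in SS lungs, at 0.31 ± 0.10 (adjusted p = 0.0652). Of 24 alternatives 7 lost the BN call. It was lost without BN control 1 (0.36), BN control 2 (0.37), BN HTV 1 (0.42) or BN HTV 2 (0.31, adjusted p = 0.118). The Atf4 call was gained in SS lungs in 3 of 24, with quantile normalization (0.33, adjusted p = 0.0317), with array weights (adjusted p = 0.0389) and without BN HTV 2 (adjusted p = 0.048). Averaged over both strains Atf4 rose by 0.35 ± 0.07 (adjusted p = 0.00363), and the interaction was -0.08 (95% interval -0.37 to 0.22; adjusted p = 0.885).

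Ddit3 encodes CHOP, the transcription factor that links prolonged stress to cell death, and it lay on the other side of 0 from Atf4. Its intensity was 152.8, 133.3 and 147.8 in SS HTV lungs, against 190.7, 183.2 and 201.7 in SS control lungs. In BN lungs it was 125.0, 103.9 and 146.8 under HTV and 124.1, 125.3 and 181.7 in controls. The SS HTV arrays were all below the SS controls, and the BN groups overlapped. HTV minus control was -0.37 ± 0.15 in SS lungs (adjusted p = 0.147) and -0.17 ± 0.15 in BN lungs (adjusted p = 0.601), so neither passed. The 95% interval was -0.70 to -0.04 in SS lungs and -0.50 to 0.16 in BN lungs.

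Herpud1, a membrane protein of the endoplasmic reticulum that aids degradation of misfolded proteins, had intensities of 722.4, 858.9 and 1002.0 in BN HTV lungs, against 410.8, 474.6 and 536.3 in BN control lungs. In SS lungs it had 653.3, 691.2 and 713.9 under HTV and 547.0, 448.5 and 667.5 in controls. The BN groups were clearly apart, and in SS lungs the highest control array, SS control 3, lay inside the range of the HTV arrays. Herpud1 rose by 0.84 ± 0.15 on the log2 scale in BN lungs (adjusted p = 0.0057) and was at 0.32 ± 0.15 in SS lungs (adjusted p = 0.209). Without SS control 3 the SS value was 0.46 (adjusted p = 0.091). The interaction was -0.52 ± 0.21 (95% interval -0.98 to -0.06; adjusted p = 0.577) and did not pass, and it was -0.38 without SS control 3.

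Hspa5, the main chaperone of the endoplasmic reticulum, did not pass for HTV in either strain. It had 1529.4, 1529.3 and 1322.3 in SS HTV lungs and 1691.4, 1422.0 and 1755.9 in SS control lungs. BN lungs had 1848.2, 2292.8 and 1766.9 under HTV and 1670.1, 1678.1 and 2104.5 in controls. The groups overlapped in both strains, and BN HTV 2 was the highest of the 12 arrays. Its log2 difference was -0.15 in SS lungs (95% interval -0.43 to 0.13; adjusted p = 0.499) and 0.11 in BN lungs (-0.16 to 0.39; adjusted p = 0.692).

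Xbp1, the transcription factor gene whose transcript IRE1 splices, also did not pass. Its intensity was 1709.3, 1877.4 and 1580.4 in SS HTV lungs and 1663.5, 1538.0 and 1742.1 in SS control lungs. In BN lungs it was 1726.0, 1974.4 and 1825.3 under HTV and 1712.8, 1595.3 and 1789.6 in controls. The arrays overlapped in both strains. The log2 difference was 0.06 in SS lungs (95% interval -0.14 to 0.27) and 0.11 in BN lungs (-0.09 to 0.32).

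For none of the 9 genes did a strain difference in the response to HTV pass its test. Of all 18625 probe sets, 0 passed the limma interaction test, where 1551 had an unadjusted p below 0.05, and 0.00% of all genes and 0 of the 9 genes passed. Without SS control 2, 1 probe set passed. The interactions of the 9 genes ran from -0.52 for Herpud1 to 0.35 for Chac1, with 3 above 0 and 6 below.

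Between the strains, Trib3 was lower in SS lungs on 1 of its 3 probe sets. On 1386321_s_at the SS minus BN log2 difference was -0.59 ± 0.13 in control lungs (adjusted p = 0.0123) and -0.70 ± 0.13 in HTV lungs (adjusted p = 0.00529). The SS HTV mean of this probe set, 97.2 ± 6.34, was close to the BN control mean of 97.6 ± 5.61 (SD, n = 3 each). On 1370694_at the difference was -0.17 in control lungs (adjusted p = 0.542) and -0.14 in HTV lungs (adjusted p = 0.682). On 1370695_s_at it was -0.29 in control lungs (adjusted p = 0.271) and -0.22 in HTV lungs (adjusted p = 0.464). All 3 probe sets were on the same side of 0, and the strain call rests on 1 of them. With the mean over the probe sets in its place, the difference was -0.35 in both conditions and did not pass (adjusted p = 0.0946 in control and 0.12 in HTV lungs). How the probes of each set match the sequence of either strain was not tested. The control call was also lost without BN control 2 (-0.56, adjusted p = 0.0574).

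**Figure D3:**
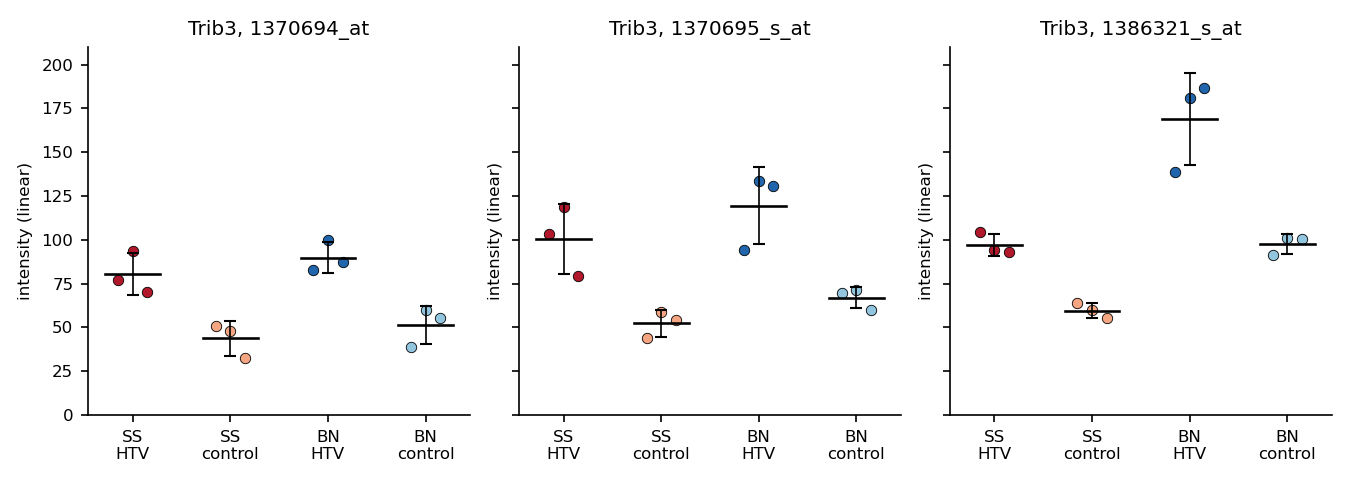
Intensity (linear) of the 3 Trib3 probe sets on every array, each point 1 array, with the group mean as a bar and the SD as a whisker (n = 3 per group). In each panel HTV arrays lie above the control arrays of their strain, and on 1386321_s_at the SS arrays lie below the BN arrays of the same condition.

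Trib3 was the 1 gene of the 9 that passed between strains in control lungs, where 10.9% of all genes passed and 5.11% were lower in SS, and in HTV lungs, where 7.13% passed and 3.18% were lower in SS. The SS and BN arrays did not overlap for 5 of the 9 genes in control lungs (32.6% of all genes) and for 5 of 9 in HTV lungs (28.3%). Hspa5 was among those in HTV lungs, at -0.42 ± 0.13 (adjusted p = 0.0629), and it passed at the same size without SS control 3 (adjusted p = 0.0449). Ddit3 was among those in control lungs, at 0.40 ± 0.15 (adjusted p = 0.103), and without BN control 3 it was 0.56 and passed (adjusted p = 0.0396).

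The other genes of the pathway were read from 6 lists of 92 genes, of which 84 were tested. In SS lungs 6 were higher and 1 lower under HTV, 8.33% of the 84, and in BN lungs 4 were higher and 0 lower, 4.76%. These shares are near those of all genes. Most of the rises lay in the list of ATF4 and CHOP targets.

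Of 20 tested ATF4 and CHOP targets, 4 rose in SS lungs and 3 in BN lungs, and 0 fell. Of all genes, 3.88% rose in SS and 2.97% in BN lungs. Atf3, a stress-induced transcription factor, had intensities of 857.1, 632.9 and 896.6 in SS HTV lungs, against 147.7, 175.9 and 84.8 in SS controls, and 1316.2, 744.6 and 988.9 in BN HTV lungs, against 97.5, 165.2 and 90.1 in BN controls. All HTV arrays of Atf3 were far above all controls, with log2 differences of 2.45 ± 0.27 in SS (adjusted p = 0.000162) and 2.96 ± 0.27 in BN (adjusted p = 3.64e-05). Cebpb, a transcription factor that also drives inflammatory genes, rose by 1.19 in SS (adjusted p = 0.001) and 1.20 in BN (adjusted p = 0.0012). Slc7a5, an amino acid transporter, rose by 0.77 in SS (adjusted p = 0.0184) and 0.88 in BN (adjusted p = 0.0105). The Slc7a5 call was lost in SS without SS control 2 (0.72) or SS HTV 3 (0.59) and in a fit of only the arrays compared (adjusted p = 0.0557), and in BN without BN HTV 2 (0.75). Bcl2l11, the cell death gene that CHOP can induce, rose in SS by 0.90 (adjusted p = 0.00241) and was at 0.27 in BN (adjusted p = 0.328); its interaction was 0.63 and did not pass (adjusted p = 0.557). The folate enzyme Mthfd2 and the arginine transporter Slc7a1 passed over both strains together, at 0.54 and 0.57, and in neither strain alone. Atf3 and Cebpb are also induced by signals outside this pathway. The targets Gdf15, Fgf21, Stc2 and Slc7a11 were below the filter, and 0 of 12 aminoacyl-tRNA synthetases passed in SS or BN lungs.

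**Figure D4:**
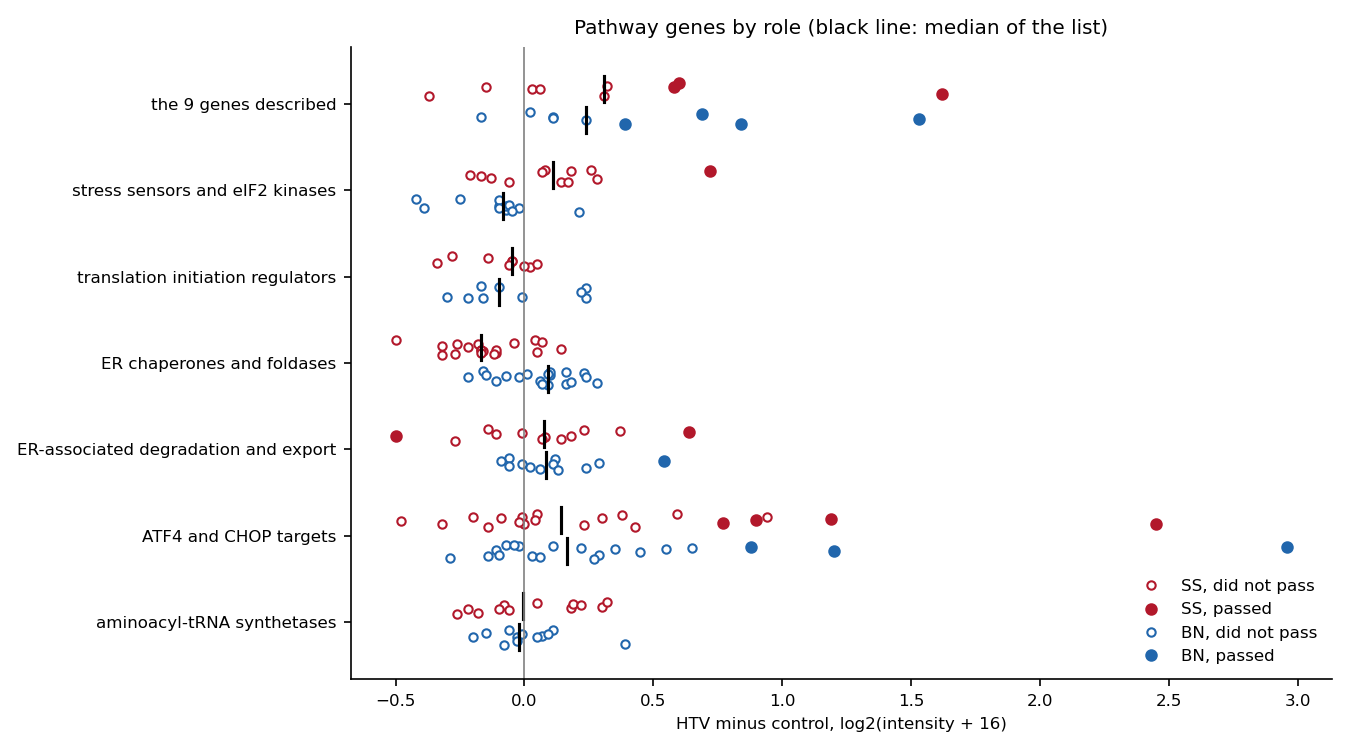
Difference in log2(intensity + 16), HTV minus control, of each tested gene in the 9 genes and the 6 pathway lists, with SS in red and BN in blue, filled points past the limma test and a black line at each list's median. The chaperones and foldases, the translation initiation regulators and the aminoacyl-tRNA synthetases hold 0 filled points. Atf3, at 2.45 in SS and 2.96 in BN, lies farthest to the right.

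Of 19 tested chaperones and foldases of the endoplasmic reticulum, 0 passed in either strain. Of all genes, 3.88% rose and 4.11% fell in SS lungs, and 2.97% rose and 2.65% fell in BN lungs. At these shares, 0 of 19 does not set the list apart from all genes. Their median difference was -0.17 in SS lungs, with 15 of 19 below 0, and 0.09 in BN lungs, with 13 of 19 above 0, where the median over all genes was -0.01 and -0.03. The list's mean was taken as log2 difference from the mean of its own strain's controls. It was highest in 2 arrays, at 0.30 in BN HTV 2 and 0.25 in SS control 3, and lay between -0.20 and 0.10 in the other 10 arrays. Without both arrays the medians were -0.01 in SS lungs and -0.05 in BN lungs, where 13 of 19 were below 0. Leaving out the arrays with the highest list means shifts the list this way by construction. It therefore cannot show where the opposite signs came from. BN HTV 2 also had the highest Hspa5 and Atf4 of all arrays. The mean of 8 type 2 cell markers, on the same scale, was also highest of its strain in these arrays, at 0.30 in BN HTV 2 and 0.18 in SS control 3, followed by 0.09 in BN control 1 and 0.16 in SS HTV 1. Summed, these markers read 18131 to 23344 in SS HTV, 18480 to 23704 in SS control, 20913 to 27347 in BN HTV and 20906 to 23884 in BN control lungs, and 0 of the 8 were at 0 in every array. Their part in the chaperone values was not tested.

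Among 12 stress sensors and eIF2 kinases, Atf6, the membrane-bound transcription factor of the unfolded protein response, rose in SS lungs. Its intensity was 625.3, 577.7 and 453.0 in SS HTV lungs and 353.6, 289.9 and 334.9 in SS controls, and 407.8, 466.7 and 406.8 in BN HTV lungs, against 604.8, 427.7 and 367.9 in BN controls. The SS groups did not overlap and the BN groups did. The log2 difference was 0.72 ± 0.17 in SS (adjusted p = 0.0191) and -0.10 in BN (adjusted p = 0.811), and the interaction of 0.82 did not pass (adjusted p = 0.528). The SS call of Atf6 was lost without SS control 2, SS HTV 1 or SS HTV 2 (0.63 to 0.69). Eif2ak2, the kinase PKR, was at -0.21 in SS and -0.39 in BN and passed over both strains together at -0.30 (adjusted p = 0.0483).

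Among 12 genes of degradation and export from the endoplasmic reticulum, Edem1, which marks misfolded glycoproteins for degradation, rose in both strains on its brightest probe set. Edem1 had 1078.7, 1205.8 and 946.5 in SS HTV lungs and 557.6, 691.9 and 818.5 in SS controls, and 908.0, 798.6 and 960.5 in BN HTV lungs, against 639.9, 609.3 and 571.7 in BN controls. The groups did not overlap in either strain, with log2 differences of 0.64 (adjusted p = 0.0124) in SS and 0.54 (adjusted p = 0.0345) in BN. The Edem1 call in BN was lost without any 1 of 5 BN arrays, BN control 1, 2 or 3 and BN HTV 1 or 3 (0.48 to 0.57), and with no filter (adjusted p = 0.0597). In SS the Edem1 call was lost in a fit of only the arrays compared (adjusted p = 0.0548). Its other probe sets were at 0.22 to 0.33 and did not pass. Derl2, a channel component of the same route, fell by 0.50 in SS (adjusted p = 0.0407) and was at 0.12 in BN, and its second probe set was at -0.05 and -0.09. The Derl2 call was lost in 14 of 24 alternatives, among them leaving out any 1 of the 6 SS arrays (-0.56 to -0.42), no filter, quantile normalization, median centring, only the arrays compared and the mean over its probe sets (-0.28).

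The HTV arrays differed among themselves, and Ppp1r15a and Herpud1 did not follow the same order. As log2 difference from the control mean of the same strain, Ppp1r15a was 1.94, 1.03 and 1.89 in SS HTV 1, 2 and 3 and 1.78, 1.70 and 1.10 in BN HTV 1, 2 and 3. Herpud1 was 0.25, 0.33 and 0.37 in the SS arrays and 0.60, 0.84 and 1.06 in the BN arrays. Ppp1r15a was thus lowest in SS HTV 2 and BN HTV 3, and BN HTV 3 was the array where Herpud1 was highest. Atf4 (0.55), Hspa5 (0.34), Asns (0.31), Chac1 (0.30) and Xbp1 (0.22) each had their highest BN value in BN HTV 2. The mean of 7 neutrophil markers was 1.76, 1.36 and 1.73 in the SS HTV arrays and 2.49, 1.99 and 0.76 in the BN HTV arrays, so it too was lowest in SS HTV 2 and BN HTV 3. Of these 7 markers 4 rose in SS lungs and 5 in BN lungs, where 3.88% and 2.97% of all genes rose. Their summed intensity was 5377 to 7783 in SS HTV against 1542 to 2443 in SS control lungs. It was 2984 to 8411 in BN HTV against 1089 to 1799 in BN control lungs. S100a9, 1 of the 7, was bright in control lungs too, at 786.6 to 1458.7 in SS and 528.0 to 922.2 in BN. The part of the neutrophil markers in the rise of Ppp1r15a was not tested. Of 8 type 2 cell markers 0 passed for HTV in either strain.

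**Figure D5:**
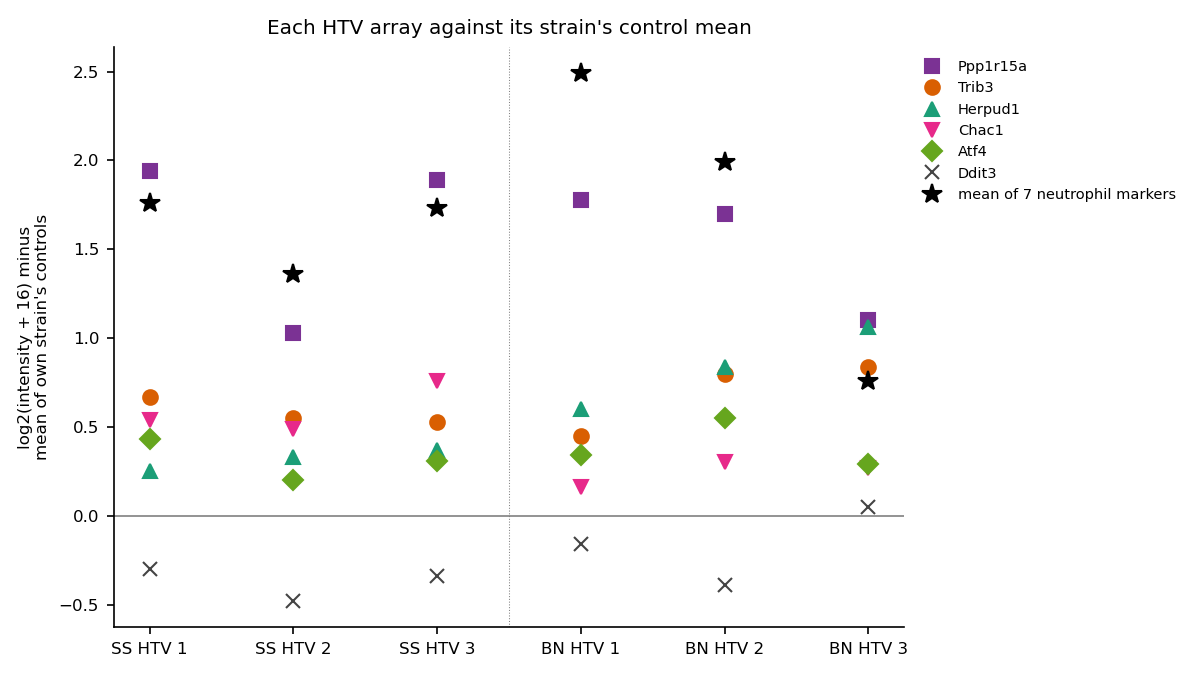
Each HTV array as log2(intensity + 16) minus the mean of its strain's control arrays, for 6 of the genes and for the mean of 7 neutrophil markers (stars). BN HTV 3 has the lowest star, 0.76, the lowest BN value of Ppp1r15a, 1.10, and the highest value of Herpud1, 1.06.

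For each gene that passed in a strain, the genes with the most similar profile over the 12 arrays were found as those with the smallest mean absolute difference of centred log2 values. For Ppp1r15a these were Junb, Arid5a and Tubb1, at 0.12, 0.13 and 0.18, where the median over all genes was 0.81. For Trib3 they were H6pd, Plcd1 and Endou (0.11 to 0.14, median 0.41), and for Herpud1 Slc7a6, Cdc42ep4 and Utp18 (0.13 to 0.14, median 0.36). For Chac1 they were Il1r1, Peds1 and Cblb (0.06 to 0.09, median 0.27), and for Atf4 Brpf1, Dlc1 and Slc7a6os, each at 0.06 (median 0.26). Only genes outside the list of 9 were searched. The nearest genes lie below the median by construction. Junb, an immediate-early transcription factor, was higher under HTV by 1.44 in SS (adjusted p = 0.00739) and 1.74 in BN lungs (adjusted p = 0.00272), beside 1.62 and 1.53 for Ppp1r15a. Junb was picked for its likeness to Ppp1r15a on these same arrays, so its difference under HTV follows from that choice and is not separate evidence.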

How the data were processed

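The labels' protocols describe 6 ug of Trizol-extracted total RNA per lung, labelled with biotin for Affymetrix arrays. Probe set values were deposited as linear intensity. MAS5 is named in the submitters' processing notes, without version or settings. Each array's mean between its 2nd and 98th percentile was about 150, so no further normalization was applied. Precision is limited by the number of arrays, and detection calls were not used here.

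After removing 57 control probe sets of 31099, values became log2(intensity + 16). Kept were 18625 probe sets (10554 genes) whose mean reached the 40th percentile, and the brightest of them stands for its gene. Probe sets annotated with several genes name none. limma 3.58.1 (R 4.3.3) fitted 4 group means over all arrays, with trended eBayes and 8 residual degrees of freedom. Benjamini-Hochberg adjustment ran over every kept probe set within each of 6 comparisons. The model was also run on simulated arrays with independent noise. That run holds no array-wide deviation like that of SS control 3, so it does not test the calls given here. Each p-value reflects the spread between these 12 arrays, and the labels name no batch. The 9 genes, the pathway and marker lists and the alternatives were chosen with earlier results of these data known. From each pathway list the text may name up to 4 genes past the test in either strain with the smallest p, and up to 2 that did not pass; similar profiles are the 3 nearest genes per member, and other genes named were chosen after their values were seen. Alternatives changed the pseudocount (1, 64), the filter (none, 60th percentile), the scaling (quantile, median centring), the eBayes trend, array weights, the arrays fitted, a beta-actin ratio covariate and the probe set rule, or left out each array, or SS control 3 with BN HTV 2. Markers of 8 cell types were read as counts and summed levels. Promoter windows came from a RefSeq table of GRCr8.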

Additional observations from a re-analysis of the deposited data

Results flagged for a closer look

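Dnajc3, a co-chaperone of Hspa5 that also inhibits PERK, had an SS effect minus BN effect of -0.56 on the log2(intensity + 16) scale (limma adjusted p = 0.586). Every SS HTV array was below the SS control mean and every BN HTV array was above the BN control mean, and the test of the difference did not pass. Its highest arrays were SS control 3 (237.9) and BN HTV 2 (220.8), and the other 10 arrays had 133.9 to 178.1.

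Derl2 showed the same pattern on its brightest probe set, with an SS effect minus BN effect of -0.62 (limma adjusted p = 0.547), which did not pass. On its second probe set the differences under HTV were -0.05 in SS and -0.09 in BN lungs.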

How the results depend on the processing

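Counts of the 9 genes that passed stayed within 1.5 times of 4 in BN lungs and 5 over both strains, and at 0 for the interaction, under all alternatives run. In SS lungs the count of 3 became 5 with array weights, where Atf4 (0.31, adjusted p = 0.0389) and Herpud1 (0.46, adjusted p = 0.0489) also passed. With 1 array left out the SS count ran from 2 to 4. Between strains the count of 1 became 0 in both conditions with the mean over probe sets, and ran from 0 to 2 in control lungs and from 1 to 2 in HTV lungs with 1 array left out. The other pathway genes called in SS lungs, 7, ran from 4 to 8 with 1 array left out. Over all probe sets, the SS count of 1502 was 810 with only the arrays compared and 630 to 1500 with 1 array left out. The BN count of 1084 was 1658 with array weights and 530 to 1466 with 1 array left out. The control strain count of 2281 was 4090 with array weights, 1463 with only the arrays compared and 731 to 2342 with 1 array left out, and the HTV strain count of 1535 was 581 with the beta-actin ratio and 678 to 2191. The interaction count was 0 to 1. Fewer arrays enter the leave-one-out fits; other causes were not tested.

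Signs turned only for differences near 0. Asns turned under array weights (-0.07 in SS, -0.09 in BN, -0.08 over both strains), without SS control 3 and BN HTV 2 together (-0.08, -0.12 and -0.10), and in its interaction under quantile normalization (-0.01), median centring (-0.01) and the beta-actin ratio (-0.04), which also turned its HTV strain difference (-0.02). Hspa5 over both strains was 0.01 with median centring. The interactions of Atf4 and Xbp1 were 0.02 and 0.05 with quantile normalization and 0.01 and 0.04 without both arrays, and that of Xbp1 was 0.04 with array weights. With 1 array left out, Asns ran from -0.08 to 0.13 in SS, -0.12 to 0.14 in BN, -0.05 to 0.09 over both and -0.11 to 0.15 in its interaction; Xbp1 from 0.00 to 0.12 in SS, -0.12 to 0.01 in its interaction and -0.09 to 0.00 between control lungs; Hspa5 over both from -0.07 to 0.04; Ppp1r15a from -0.12 to 0.39 in its interaction and -0.37 to 0.14 between HTV lungs; and Atf6 in BN from -0.25 to 0.10. With median centring the share of higher calls was 60.3% in BN lungs, against 50.9% as deposited.

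No paired analysis was run, because the codes that end the titles are shared by no groups. A fit on only the arrays compared gives no value for the interaction or both strains. With 3 arrays a group, and no detection calls used, small changes and dim probe sets are poorly resolved.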

Other observations

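Single genes of the other pathway lists also differed between strains. In control lungs Vcp, the segregase that extracts proteins for degradation, was higher in SS than in BN by 0.73 ± 0.12 (log2, limma adjusted p = 0.00282), and in HTV lungs by 0.59 ± 0.12 (adjusted p = 0.00991). Psat1, a serine synthesis enzyme, was higher in SS by 0.67 in control lungs (adjusted p = 0.0171) and by 0.62 in HTV lungs (adjusted p = 0.0297). Eif2s1, the phosphorylated subunit of eIF2, was higher in SS control lungs by 0.51 (adjusted p = 0.0166). Eif2ak1, the haem-regulated eIF2 kinase, was lower in SS control lungs, at -0.49 (adjusted p = 0.0105). These control comparisons include SS control 3, which lay nearer BN at 9 of 21 probe sets that separate the strains. They are not given without that array. Of the 84 pathway genes tested, 8.33% passed between strains in control lungs, against 10.9% of all genes, and 8.33% in HTV lungs, against 7.13%, so these shares were near those of all genes.

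Cardiac muscle markers come from heart or pulmonary vein tissue in a lung sample. Their summed intensity was 92 to 501 in SS control lungs and 1147 to 2492 in BN control lungs. In HTV lungs it was 151 to 1094 in SS and 845 to 3748 in BN, and these ranges overlap. Of 7 markers, 6 were lower in SS in control lungs, where 5.11% of all genes were lower. This count includes SS control 3 and is not given without that array. In HTV lungs 2 of the 7 markers were lower in SS, where 3.18% of all genes were lower. Their part in the strain differences was not tested.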
